A study of Mus musculus with 34 samples.

Results

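Ccn2 and 9 other genes of the YAP/TEAD pathway (Ccn1, Ankrd1, Amotl2, Arhgap29, Axl, Lats2, Tead1, Yap1 and Wwtr1) were followed across retrovirally transduced mouse neural stem cells on Illumina bead arrays. The set was chosen by the measured C17.2 values of Ccn2 and Arhgap29 together with knowledge of the pathway, so C17.2 differences of members are given as a description with no p-value, and counts of members past the threshold there are printed without being read as a result. Tests were made in primary cells and, for members other than Ccn2, Arhgap29 and Ankrd1, between the control groups of both cell types. Members were found by gene symbol, with Ccn2 also listed as Ctgf and Ccn1 as Cyr61, which gave 10 of 19057 annotated genes and 20 of 45281 probes.

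C17.2 is a line of immortalised neural stem cells from mouse, and the primary neural stem cells (NSC) came from telencephalon of E13.5 mouse embryos. All cells carried a retrovirus. The 4 C17.2 control arrays and the 5 NSC control arrays received the empty pBabe vector. STAT3C, a constitutively active form of STAT3, was given alone to 4 C17.2 and 4 NSC arrays. CEBPB, a transcription factor of the C/EBP family, was given alone to 4 arrays of each cell type. Both vectors together were given to 4 C17.2 and 5 NSC arrays. For the NSC arrays with both vectors one label writes STAT3 and the others STAT3C, and the construct was read here as STAT3C. The labels do not say which arrays came from separate cultures, so each p-value measures the spread between arrays, which may be technical.

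YAP (Yap1) and TAZ (Wwtr1) are transcriptional coactivators that bind no DNA themselves and act through TEAD factors such as Tead1. The Hippo kinases, among them Lats2, phosphorylate YAP and TAZ and keep them in the cytoplasm. Ccn2, Ccn1, Ankrd1, Amotl2, Axl, Arhgap29 and Lats2 are widely used as transcriptional targets, and Amotl2 and Lats2 feed back to restrain the coactivators. An array reads transcript level only and does not show where YAP and TAZ proteins were in the cell. In pools of cells, fewer cells expressing a gene and less RNA per cell cannot be told apart.

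RefSeq promoter windows were found for 8 of the 10 members (11 windows, since some genes have several annotated starts), with Ccn2 and Tead1 unmatched, and the 250 bases before each start were searched on both strands for the core TEAD letters CATTCC. At least 1 match lay in the windows of 6 members, against 12.6% of 32851 mouse promoter windows of this length. The letters of a C/EBP motif (TTGCNNAA) and of a STAT motif (TTCNNNGAA) were in the windows of 0 members, against 9.56% and 7.02% of all windows, and no matches overlapped. A match of letters is a description of the window and not a binding site. Windows of 3 target genes are shown on GRCm38.p6 in the direction of the gene, with the TEAD letters in capitals. Ccn1 lies at chr3:145649986-145650235 on the minus strand, Ankrd1 at chr19:36119845-36120094 on the minus strand and Amotl2 at chr9:102717554-102717803 on the plus strand.
Ccn1: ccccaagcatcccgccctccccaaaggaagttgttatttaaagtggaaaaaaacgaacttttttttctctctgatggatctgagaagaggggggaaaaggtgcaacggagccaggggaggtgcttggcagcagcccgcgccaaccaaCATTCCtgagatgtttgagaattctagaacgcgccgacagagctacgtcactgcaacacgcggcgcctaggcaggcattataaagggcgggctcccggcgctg
Ankrd1: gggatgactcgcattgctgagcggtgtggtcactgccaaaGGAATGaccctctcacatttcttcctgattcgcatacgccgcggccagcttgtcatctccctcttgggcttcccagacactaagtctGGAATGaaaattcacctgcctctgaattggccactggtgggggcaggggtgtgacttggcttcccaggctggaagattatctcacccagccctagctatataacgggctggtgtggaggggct
Amotl2: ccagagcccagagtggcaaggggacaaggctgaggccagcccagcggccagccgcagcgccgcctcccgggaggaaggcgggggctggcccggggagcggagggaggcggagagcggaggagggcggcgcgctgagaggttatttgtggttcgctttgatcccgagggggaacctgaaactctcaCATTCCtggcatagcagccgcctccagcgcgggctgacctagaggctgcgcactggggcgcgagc

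The TEAD letters began 103 bases before the start of Ccn1, 65 bases before that of Amotl2, and 210 and 123 bases before that of Ankrd1. Among the other members they began 233 bases before the start of Axl, 141 before that of Yap1, and 136 and 170 before the pair of annotated starts of Wwtr1. The windows of Arhgap29 and Lats2 held none of them.

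Signals are normalised log2 intensities, so a difference of 1 is a doubling, and a probe counts as detected on an array at a detection p below 0.05. Between 33.8% and 35.9% of probes were detected per C17.2 array and between 36.3% and 41.7% per NSC array, and each member value averaged a median of 42 and 41 beads. The 16 C17.2 arrays lay on slides 1 to 3, with the 4 controls alone on slide 1, so in this line a difference from control and a difference between slides cannot be told apart. The 18 NSC arrays lay on slides 4 to 6, and slide 6 held all 4 groups. Replicate 4 of each NSC group carried signal of the Y-chromosome gene Eif2s3y, which the other 14 NSC arrays lacked. On the first principal component these 4 arrays scored -49.1 to -45.3, apart from the other arrays of slide 6 at -14.5 and -10.5 and from slides 4 and 5 above 0, so slide 6 held arrays of 2 kinds. A slide term that splits them was added after the data were seen. In C17.2 it was detected on all arrays except replicate 2 with both vectors. Signal of Stat3 and Cebpb themselves did not pass the test in any group against its control, with log2 differences from -0.53 to 0.70. Whether those probes lie in the transduced sequence is not given in the sources used here, so this is no check of the vectors. Nes, Sox2 and Vim were detected on all 34 arrays, whereas the neural stem markers Msi1 and Pax6 were detected on none, and Fabp7 was detected on all NSC arrays and no C17.2 array.

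Lats2 was at background throughout, with its single probe detected on 0 of 34 arrays. The other 9 members passed the detection filter in C17.2 and 8 did in NSC, where Ankrd1, a cardiac and muscle ankyrin repeat protein, was detected on 2 of 18 arrays. These counts describe detection only, since a member can pass through the group in which it is high.

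The control arrays already differed between the cell types in most members. In the joint fit of all 34 arrays, 8 of 9 tested members differed between C17.2 and NSC controls, 6 of them higher in C17.2, and 48.5% of all 11713 genes passed the same test. That count includes Ccn2 and Arhgap29, whose C17.2 arrays chose the set and which are given without a p-value. It also includes Ankrd1, which passed the detection filter through C17.2 and is likewise given without one. A share that large makes the count of members no particular result, and slide and cell type cannot be told apart here because no slide held both. The values below are control means over 4 C17.2 and 5 NSC arrays with their SD, and adjusted p-values are from limma.

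Axl, a receptor tyrosine kinase, averaged 12.54 ± 0.13 in C17.2 and 8.04 ± 0.18 in NSC controls, a log2 difference of 4.5 ± 0.20 (SE, adjusted p = 2.88e-18). Ccn2, the secreted matricellular protein formerly called connective tissue growth factor, averaged 9.06 ± 0.44 and 6.18 ± 0.52, 7.35-fold higher in C17.2. Its close relative Ccn1 averaged 8.0 ± 0.66 and 4.97 ± 0.23, and was detected on 3 of the 5 NSC controls (log2 difference 3.03 ± 0.39 SE, adjusted p = 1.48e-07). All 3 therefore averaged higher in C17.2 controls than in NSC controls.

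Amotl2, an angiomotin family scaffold, averaged 6.59 ± 0.26 in C17.2 and 4.77 ± 0.17 in NSC controls, where 1 of 5 arrays detected it (log2 difference 1.82 ± 0.18 SE, adjusted p = 5.33e-10). Ankrd1 was detected on 3 of 4 C17.2 and, with the probe used in this fit, on 0 of 5 NSC controls, so that C17.2 was at least 2.8-fold higher. That probe was detected on 15 of 16 C17.2 and 1 of 18 NSC arrays. It therefore passed the detection filter through C17.2, and its difference is described without a p-value. Its call in the count above ended in 8 of the 9 fits that left out 1 array, in which the log2 difference ran from 1.37 to 2.14. With the authors' deposited values the difference was 0.43.

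Arhgap29, a GTPase-activating protein for RhoA, went the opposite way: it averaged 5.83 ± 0.54 in C17.2 and 9.28 ± 0.31 in NSC controls, 10.9-fold lower in the line. Tead1 was also lower in C17.2, by a log2 difference of -0.59 ± 0.15 (SE, adjusted p = 0.00146). The coactivator Yap1 was higher in C17.2 by 0.53 ± 0.18 (SE, adjusted p = 0.0154), a call that ended without NSC control replicate 1 (0.39, adjusted p = 0.0653). Wwtr1 differed by 0.41 ± 0.18 (SE) and missed the threshold (adjusted p = 0.0557). Sizes depended on the processing: with the authors' deposited values the differences were 1.35 for Ccn2, 1.02 for Ccn1, 0.45 for Amotl2, 0.29 for Yap1, -0.35 for Tead1 and -1.61 for Arhgap29, and with all kept probes of a gene averaged they were 2.29 for Axl and -1.73 for Arhgap29.

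In C17.2, Ccn2 was highest with both vectors. Its control arrays read 9.46, 8.39, 9.23 and 8.97, the STAT3C arrays 9.28, 9.64, 10.39 and 10.41, the CEBPB arrays 12.13, 12.94, 10.37 and 12.49, and the arrays with both vectors 12.28, 13.44, 13.51 and 11.95. Every CEBPB array and every array with both vectors lay above every control, while the STAT3C arrays overlapped the controls, and CEBPB replicate 3 lay among the STAT3C arrays. The mean log2 difference from control was 0.92 with STAT3C, 2.97 with CEBPB and 3.79 with both (SE 0.50 each).

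**Figure D1:**
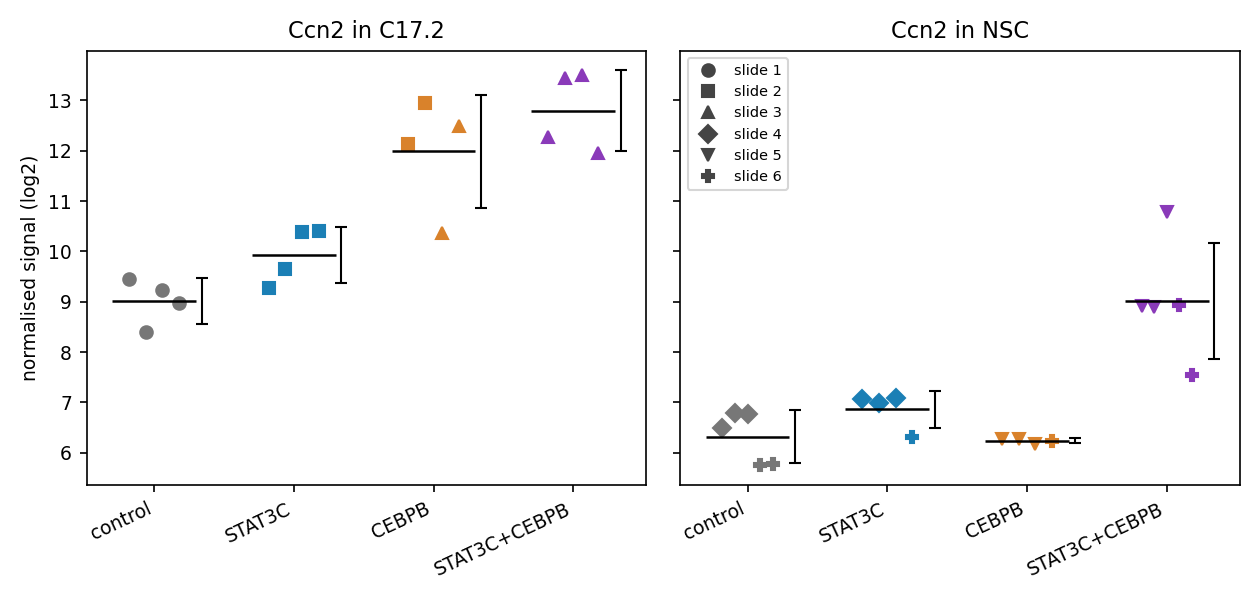
Normalised log2 signal of Ccn2 on each array (points, shape by slide), with the group mean (line) and SD (bar), in C17.2 on the left and NSC on the right. In C17.2 the CEBPB arrays (10.37 to 12.94) and the arrays with both vectors (11.95 to 13.51) lie above the controls (8.39 to 9.46), and in NSC the arrays with both vectors (7.55 to 10.79) lie above all other groups.

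Both vectors exceeded STAT3C alone by 2.86, and Ccn2 was the 1 member of 9 without overlap there (5.3% of all genes). They exceeded CEBPB alone by 0.81 with overlap, and by 1.37 within slide 3, a comparison added after the data were seen. CEBPB exceeded STAT3C by 2.05, and 0 members were without overlap in that pair (6.05% of all genes). A second Ccn2 probe, read on its own scale, had group means of 6.58, 7.56, 9.98 and 10.91 in the order control, STAT3C, CEBPB and both vectors, and so gave the same order. Between C17.2 CEBPB and control, 2 of 9 members (Ccn2 and Arhgap29) were past an adjusted p of 0.05, against 1.62% of all genes. Ccn2 alone was past it for both vectors against control (0.577% of all genes) and against STAT3C (0.186%), and 0 members were for STAT3C against control (0.0103%), CEBPB against STAT3C (0.227%) and both vectors against CEBPB (0%). Nothing is read from these counts, since C17.2 values led to the choice of the set.

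Ankrd1 and Arhgap29 were also higher in the transduced C17.2 groups than in controls. Ankrd1 read 6.24, 4.92, 7.16 and 6.75 in controls, 5.83, 7.60, 10.38 and 9.94 with STAT3C, 10.67, 10.62, 8.07 and 10.57 with CEBPB, and 7.69, 11.31, 10.70 and 7.33 with both. Arhgap29 read 4.95, 6.04, 5.83 and 5.83 in controls, 6.28, 8.24, 9.02 and 8.94 with STAT3C, 9.88, 9.08, 7.13 and 9.08 with CEBPB, and 7.07, 9.15, 8.97 and 7.83 with both. For both genes STAT3C replicate 1, CEBPB replicate 3, and replicates 1 and 4 with both vectors were the lowest arrays of their groups, as they were for Ccn2.

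The mean log2 differences from control were 2.17, 3.72 and 2.99 for Ankrd1 (SE 1.06) and 2.46, 3.13 and 2.59 for Arhgap29 (SE 0.65) with STAT3C, CEBPB and both vectors. Arhgap29 was the 1 member of 9 whose STAT3C arrays did not overlap the controls (8.49% of all genes), and those of Ankrd1 did. The second Ankrd1 probe gave 1.82, 3.37 and 2.73. The second Arhgap29 probe was detected on 6 of 16 C17.2 arrays and differed from control by -0.16, 0.03 and 0.01, so the C17.2 difference of this gene rests on 1 probe. With the authors' deposited values the differences were 1.09, 1.98 and 1.57 for Ankrd1 and 0.98, 1.35 and 1.02 for Arhgap29.

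That array order followed a pattern of the whole line. The first principal component of the C17.2 arrays, computed without the members, held 50% of the variance. Controls scored -45.2 to -21.2, STAT3C arrays -37.5, -12.2, 34.8 and 16.6, CEBPB arrays 41.7, 42.9, -22.4 and 36.6, and arrays with both vectors -25.1, 41.2, 41.5 and -20.4. Ankrd1 and Arhgap29 were high on the 7 arrays with a positive score and lower on the others. Ccn2 stood apart from them in level on replicates 1 and 4 with both vectors, which scored below 0 like the controls and yet read 12.28 and 11.95, above all controls and all STAT3C arrays.

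**Figure D2:**
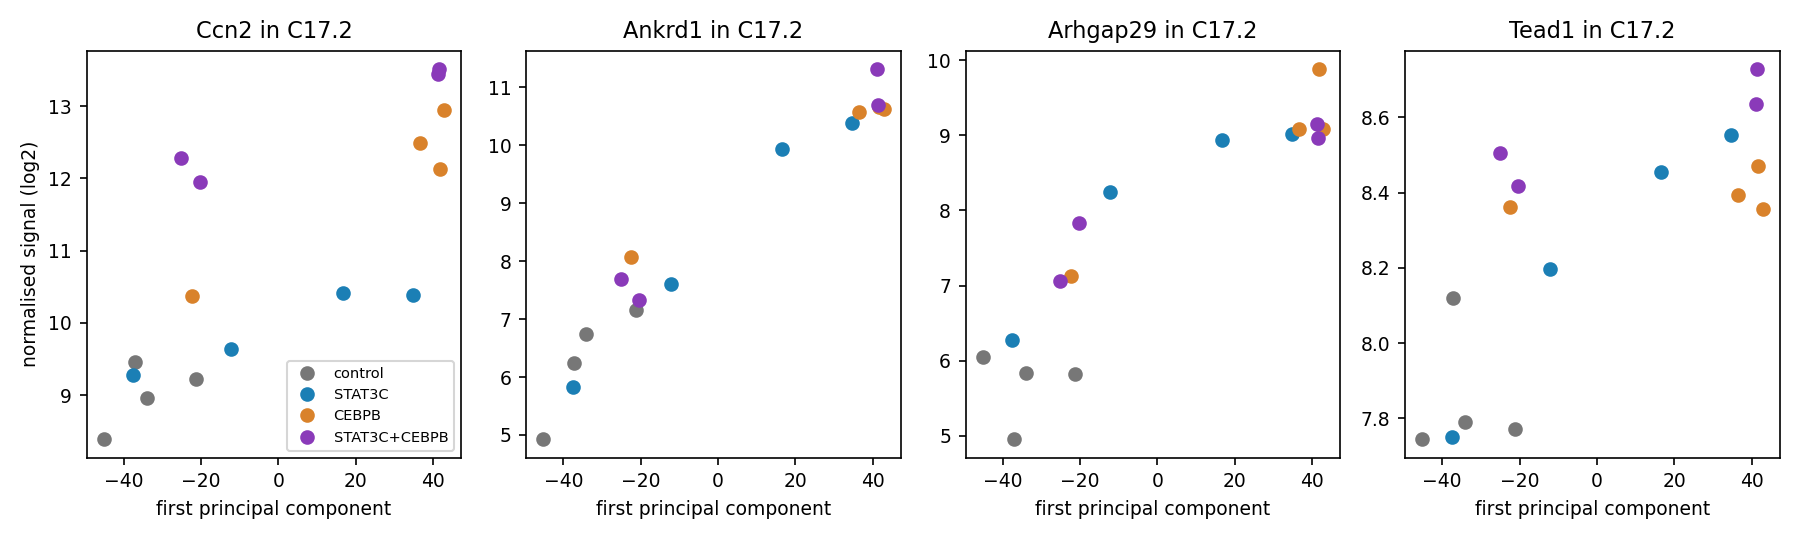
Normalised log2 signal of Ccn2, Ankrd1, Arhgap29 and Tead1 on each C17.2 array against the array's score on the first principal component, computed without the members, with points coloured by vector. Ankrd1 and Arhgap29 climb along the component, whereas Ccn2 at scores below 0 is 8.39 to 9.64 in controls and STAT3C arrays, 10.37 on CEBPB replicate 3 and 11.95 and 12.28 with both vectors.

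The mean of chromosome 10 genes was positive on the C17.2 arrays with a positive first component score and negative on the others. The mean of 491 tested chromosome 10 genes, the chromosome that carries Ccn2 (GRCm38.p6, chr10:24595442-24598683), ran from -0.21 to -0.10 in controls (log2, relative to each gene's mean), -0.17 to 0.12 with STAT3C, -0.05 to 0.26 with CEBPB and -0.08 to 0.35 with both vectors. With that mean as a covariate, the Ccn2 difference from control was 1.90 ± 0.49 (SE) with CEBPB and 2.94 ± 0.45 with both. The difference of Ankrd1 was then 1.10 ± 0.91 and 0.93 ± 0.83, and that of Arhgap29 1.54 ± 0.57 and 1.34 ± 0.52. The summed signal of 10 meningeal fibroblast and pericyte markers, of which Lum and Rgs5 were detected on 0 arrays and Col1a1 and Col3a1 on all 16, was 551.8 to 1008 in controls, 869.9 to 3730 with STAT3C, 794.1 to 2001 with CEBPB and 424.9 to 1869 with both. Their part in the member values was not tested.

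Where Ccn2 was high, in C17.2 with CEBPB or both vectors and in NSC with both, 0 of the 10 nearest tested genes were higher than control by as much. The 10 nearest tested genes, 5 on each side, had a median log2 difference from control of -0.03 with CEBPB and -0.15 with both vectors in C17.2, and of -0.03 and 0.11 in NSC. Next to Ccn2 in C17.2, Med23 differed by 0.72 with CEBPB and Moxd1 by -5.04 ± 1.85 (SE), further from control than Ccn2 but downward, and neither was past the threshold, while Epb41l2 with both vectors was past it at -1.03.

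**Figure D3:**
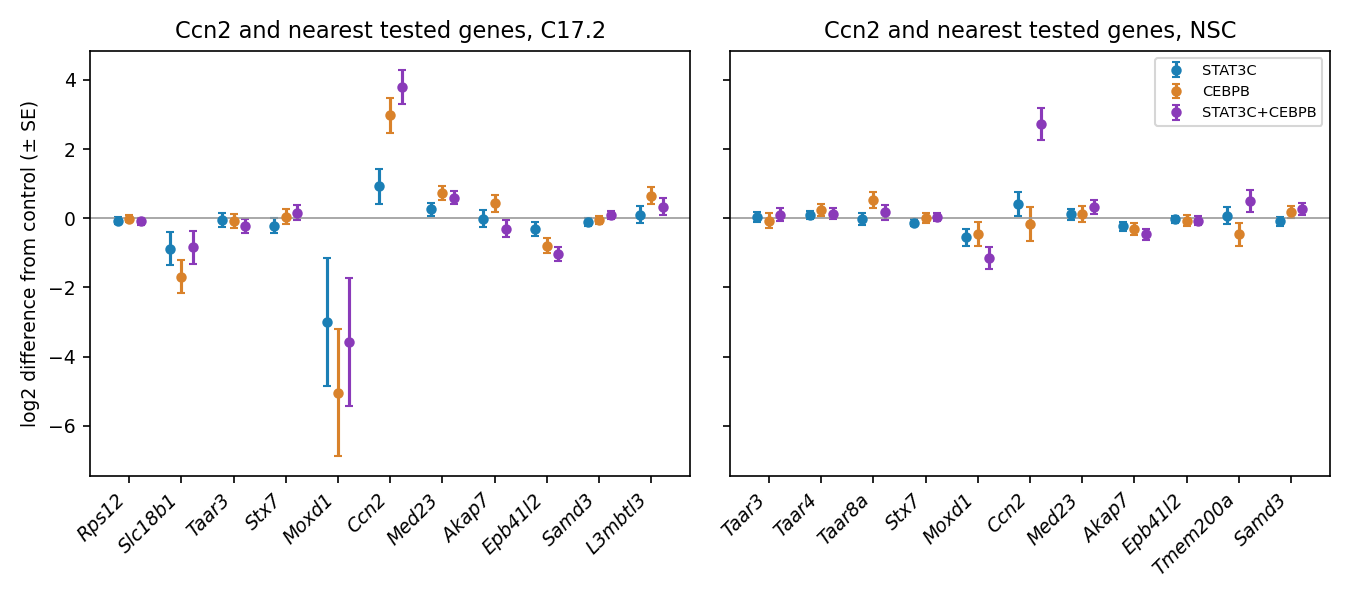
Log2 difference from control (± SE) of Ccn2 and its 5 nearest tested genes on each side, in chromosomal order, for C17.2 (left) and NSC (right), coloured by vector. Ccn2 stands at 2.97 and 3.79 in C17.2 with CEBPB and with both vectors and at 2.72 in NSC with both, while the neighbours' medians lie between -0.15 and 0.11 and Moxd1 in C17.2 lies as low as -5.04.

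Among the remaining C17.2 members, Tead1, the DNA-binding partner of YAP and TAZ, read 8.12, 7.74, 7.77 and 7.79 in controls, 7.75, 8.20, 8.55 and 8.46 with STAT3C, 8.47, 8.36, 8.36 and 8.39 with CEBPB, and 8.50, 8.63, 8.73 and 8.42 with both. CEBPB arrays and arrays with both vectors lay above all controls, at differences of 0.54 and 0.71 (SE 0.16), and a second probe gave 0.49 and 0.56. With the authors' deposited values Tead1 differed by 0.27 and 0.37. Groups that do not overlap were seen in 4 of 9 members for CEBPB and for both vectors (Ccn2, Ankrd1, Arhgap29 and Tead1), and in 14.5% and 8.57% of all genes. Ccn1 overlapped between all groups, at 7.39 to 8.90 in controls and 7.62 to 9.55 with both vectors, and differed from control by 0.24, 0.73 and 0.68 (SE 0.43).

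Amotl2 differed from control by 0.17 to 0.48 (SE 0.21). Yap1 differed by 0.25, 0.31 and -0.06 (SE 0.19) and Wwtr1 by -0.16, -0.28 and -0.31 (SE 0.15). The other Wwtr1 probes, detected on all 16 arrays, gave 0.07, -0.05 and 0.01, and 0.05, -0.06 and -0.10, so the size for Wwtr1 rests on 1 probe. Axl stayed between 11.97 and 13.17 on all 16 arrays and differed by -0.21, -0.32 and -0.23 (SE 0.25), a direction that turned to 0.20 and 0.18 for CEBPB and both vectors with the chromosome 10 covariate.

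In NSC, Ccn2 was highest with both vectors together, and neither vector alone passed the test against control. Control arrays read 6.50, 6.80, 6.77, 5.76 and 5.78, STAT3C arrays 7.07, 6.99, 7.09 and 6.32, CEBPB arrays 6.28, 6.28, 6.18 and 6.23, and arrays with both vectors 8.91, 8.89, 10.79, 8.94 and 7.55. All 5 arrays with both vectors lay above the other 13, which against control held for Ccn2 alone among 8 members (2.78% of all genes without overlap), replicate 3 highest and replicate 5 lowest, and the other 3 groups lay within 5.76 to 7.09. With slide as a term, both vectors exceeded control by 2.72 ± 0.45 (SE, 6.60-fold, adjusted p = 0.00426, limma) and exceeded CEBPB alone by 2.89 ± 0.35 (7.41-fold, adjusted p = 0.00042).

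Ccn2 was the only one of 8 tested members past the threshold in either comparison, against 2.84% of all genes for both vectors versus control and 6.47% versus CEBPB. Against control, leaving out any 1 of the 10 arrays kept the difference between 2.47 and 3.34 (adjusted p from 0.000124 to 0.0184). It did not pass with the authors' deposited values (1.21, adjusted p = 0.0826), within slide 6 alone with 2 arrays a group (2.47, adjusted p = 1), or without the 4 arrays with Y-chromosome signal (1.76, adjusted p = 0.15), which leaves 1 control and 1 array with both vectors on the shared slide. With slide 6 split by Y-chromosome signal it was again 2.72 (adjusted p = 0.00065). Against CEBPB it was 3.28 within slide 5 (adjusted p = 0.00163) and 2.01 within slide 6 (adjusted p = 1), where CEBPB had 1 array.

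The second Ccn2 probe was detected on 5 of 5 NSC arrays with both vectors, 3 of 4 with STAT3C, 1 of 5 controls and 0 of 4 with CEBPB, and was at least 3.56-fold higher with both vectors than with CEBPB. Against STAT3C alone, both vectors were higher by 2.31 ± 0.50 (SE, 4.94-fold) as the 1 member of 8 without overlap (5.7% of all genes), but the adjusted p was 0.0609. It passed without replicate 3 with both vectors (2.15, adjusted p = 0.00295) or without replicate 5 (2.92, adjusted p = 0.00563), and with slide 6 split (2.43, adjusted p = 0.0101). In 14 of 19 alternatives it did not pass, among them the authors' deposited values (1.08, adjusted p = 0.29). STAT3C differed from control by 0.42 ± 0.35 (95% confidence interval -0.33 to 1.16, adjusted p = 0.88) and CEBPB by -0.17 ± 0.50 (-1.22 to 0.89, adjusted p = 0.975). Within slide 4 the STAT3C difference from control was 0.36 ± 0.12 (SE, adjusted p = 0.545). Within slide 6, where each had 1 array, STAT3C differed from control by 0.55 and CEBPB by 0.46. CEBPB minus STAT3C was -0.58 ± 0.54 (adjusted p = 1), with Ccn2 again the 1 member without overlap (4.62% of all genes). Between STAT3C and control 0 members were without overlap (1.08% of all genes).

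The difference with both vectors was larger than the sum of the differences with each by 2.47 ± 0.50 (SE), at an adjusted p of 0.0753, so non-additivity of Ccn2 did not pass the test with slide as the term, and 0 members passed it (0.0368% of all genes). It passed without CEBPB replicate 4 (2.86, adjusted p = 0.0126) and without replicate 3, 4 or 5 with both vectors (2.01, 2.37 and 2.72, adjusted p = 0.0239, 0.0353 and 0.0351). It also passed with slide 6 split by Y-chromosome signal (2.73, adjusted p = 0.0159) and without the arrays that carry it (2.92, adjusted p = 0.00643). In the other 22 of 28 alternatives it did not pass. Among these were the authors' deposited values (1.38, adjusted p = 0.136) and the fit with no slide term (2.23, adjusted p = 0.425). Across the 8 groups of both cell types, normalised together, the order of Ccn2 means was C17.2 with both vectors (12.65), CEBPB (11.87), STAT3C (9.93) and control (9.06), then NSC with both vectors (8.97), STAT3C (6.73), control (6.18) and CEBPB (6.09). Neighbours in that order overlapped in their arrays except NSC with both vectors and NSC STAT3C.

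With slide as the term, the other NSC members did not pass in any comparison, and Arhgap29 and Tead1 came closest. Ccn1 read 5.19, 5.05, 5.37, 4.82 and 4.70 in controls, 5.11, 5.19, 5.42 and 4.88 with STAT3C, 4.84, 5.0, 5.20 and 5.45 with CEBPB, and 5.92, 5.77, 7.72, 5.07 and 5.37 with both vectors. Replicate 3 with both vectors, the array highest in Ccn2, was also highest in Ccn1, and the rest overlapped the other groups or lay just above them. Both vectors differed from control by 0.83 ± 0.44 (SE, adjusted p = 0.359), from STAT3C by 0.76 ± 0.48 (adjusted p = 0.597) and from CEBPB by 0.94 ± 0.34 (adjusted p = 0.11).

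Against CEBPB the difference of Ccn1 passed without CEBPB replicate 4 (1.46, adjusted p = 0.0166) and within slide 5 (1.46, adjusted p = 0.0481), and its direction turned within slide 6 (-0.23). In 16 of 20 alternatives it kept its direction and did not pass. Detection was partial, on 12 of 18 arrays, so values near 5 carry little order. Tead1 read 8.34, 8.21, 8.21 and 8.38 with CEBPB and 8.81, 8.87, 8.89, 8.47 and 8.71 with both vectors, a difference of 0.48 ± 0.14 (SE, adjusted p = 0.0571). Tead1 and Ccn2 were the 2 members of 8 without overlap there (4.95% of all genes). The difference passed within slide 5 (0.60, adjusted p = 0.00336), without CEBPB replicate 4 (0.60, adjusted p = 0.0369) without replicate 4 with both vectors (0.54, adjusted p = 0.0309) and with slide 6 split (0.47, adjusted p = 0.0424). In 12 of 20 alternatives it did not pass. A second Tead1 probe, detected on all 18 NSC arrays, gave a smaller difference of 0.24 without a slide term, where the probe used gave 0.46.

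All 5 NSC control arrays of Tead1, at 8.44, 8.42, 9.19, 8.42 and 8.60, lay above the CEBPB arrays, as 2.05% of all genes did in either direction, at a difference of -0.34 ± 0.20 (SE, adjusted p = 0.703). Arhgap29 in NSC read 9.34, 9.21, 8.89 and 8.72 with CEBPB and 9.82, 9.90, 10.21, 9.0 and 8.50 with both vectors, which overlapped. CEBPB differed from control by -0.81 ± 0.25 (SE, adjusted p = 0.292), which passed with slide 6 split (-0.91, adjusted p = 0.0351), and both vectors from CEBPB by 0.58 ± 0.17 (adjusted p = 0.0561). The latter passed without CEBPB replicate 4 (0.83, adjusted p = 0.0112), without replicate 5 with both vectors (0.69, adjusted p = 0.0141) within slide 5 (0.83, adjusted p = 0.00637) and with slide 6 split (0.68, adjusted p = 0.00234), where non-additivity of Arhgap29 passed as well (0.86, adjusted p = 0.0304). Both vectors against CEBPB did not pass in 13 of 20 alternatives, nor did CEBPB against control in 18 of 19.

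Axl, Amotl2, Yap1 and Wwtr1 gave 7 comparisons each in NSC, with log2 differences from -0.40 to 0.21, -0.35 to 0.35, -0.14 to 0.10 and -0.51 to 0.20. The lowest adjusted p among them was 0.219, for Amotl2, which was detected on 8 of 18 arrays. Yap1 lay between 8.01 and 9.14 and Wwtr1 between 9.26 and 10 on all NSC arrays. For single vectors against control 0 members passed, beside 0% of all genes for STAT3C, where 558 genes had an unadjusted p under 0.05 and 0 of them passed limma's adjusted test, and 0.0276% for CEBPB. For both vectors against STAT3C it was 0 members beside 0.341%, and for CEBPB against STAT3C 0 members beside 0.00921%.

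**Figure D4:**
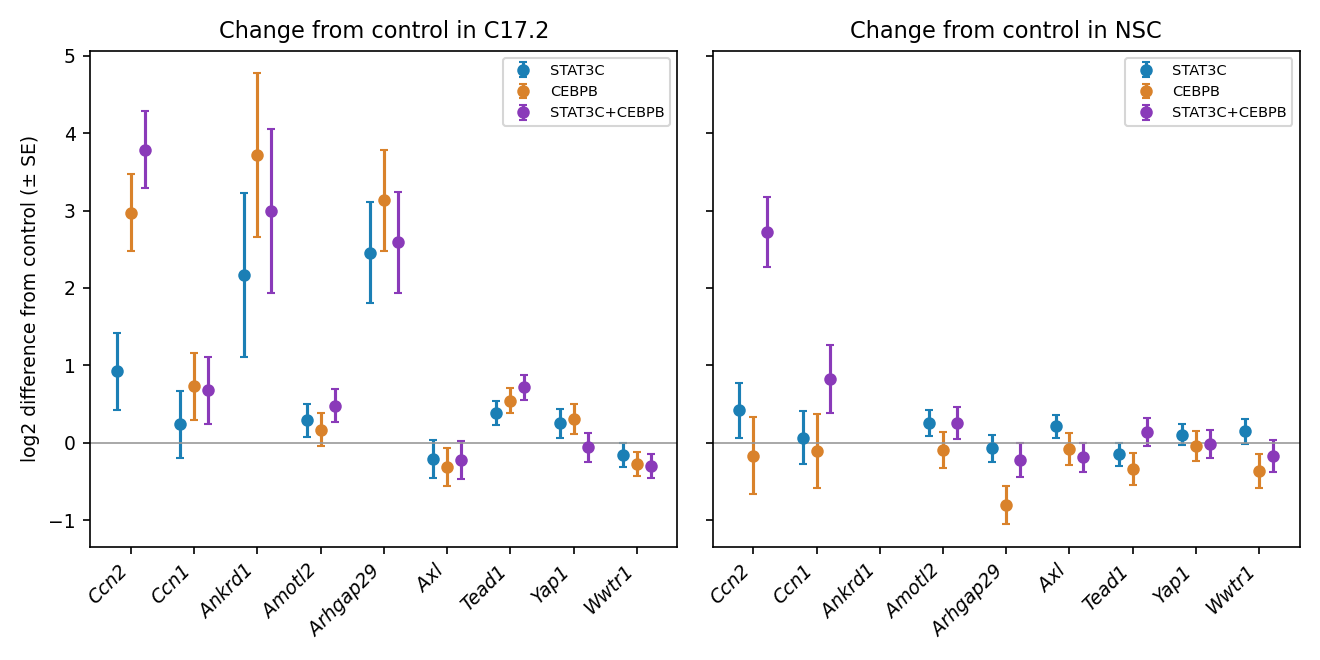
Log2 difference from control (point, ± SE) of each tested member in C17.2 (left) and NSC (right), coloured by vector. Lats2 was detected in neither cell type and Ankrd1 was not tested in NSC. Ccn2 is at 3.79 in C17.2 and 2.72 in NSC with both vectors, whereas CEBPB alone gives 2.97 and -0.17, and Arhgap29 is at 3.13 and -0.81 with CEBPB.

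Set side by side, CEBPB alone went with a Ccn2 difference of 2.97 in C17.2 and of -0.17 in NSC, and both vectors with 3.79 and 2.72. Arhgap29, low in C17.2 controls and high in NSC controls, differed by 3.13 and -0.81 with CEBPB. The differences between cell types were not tested, because the C17.2 values led to the choice of the set. The median log2 difference over the 8 NSC members was 0.06 with both vectors against control and 0.42 against CEBPB, beside 0.01 and -0.01 over all genes, and over the 9 C17.2 members it was 0.54 with CEBPB and 0.68 with both, beside 0.01 and 0.01. The C17.2 medians include Ccn2 and Arhgap29, whose C17.2 values chose the set, so nothing is read from them.

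The genes whose array pattern was most like that of Ccn2 differed between the cell types. Over the 16 C17.2 arrays, Pearson's r with Ccn2 was highest for Nectin2 (0.93), an adhesion receptor, followed by Ipmk, Cbwd1, Myd88 and Kdm8 (0.90 each), and lowest for Zfp667 (-0.93), Edil3 (-0.92) and Gask1b (-0.91). Tead1 stood at 0.84, rank 56 of 9698, Ankrd1 at 0.80 (rank 126), Arhgap29 at 0.74 (rank 314) and Wwtr1 at -0.76 (rank 9505). The remaining members were spread between these, with Ccn1 at 0.58 (rank 1125), Amotl2 at 0.32 (rank 2806), Yap1 at 0.09 (rank 4396) and Axl at -0.58 (rank 8663). Over the 18 NSC arrays, after slide means were taken out, the highest were Hs3st1 (0.97), Crim1 (0.96), Ehd4 (0.93), Pdgfb (0.92) and Slco3a1 (0.91), and the lowest Eef2k (-0.96), Rab33a (-0.94) and Txnip (-0.94). Ccn1 was the nearest member there at 0.80 (rank 96 of 10857). These correlations share their arrays, vectors and slides and are descriptions.

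Of 80 other genes of the pathway and of related programmes, listed from general knowledge with earlier results known, 59 were tested in C17.2 and 56 in NSC. In C17.2 CEBPB against control, where 1.62% of all genes passed, Stk4, the Hippo kinase also called Mst1, rose by 1.25 ± 0.25 (SE, adjusted p = 0.0264, limma) and Tgif1, a corepressor of SMAD signalling, by 0.65 ± 0.14 (adjusted p = 0.0397). The other listed genes did not pass in any C17.2 comparison. Upstream regulators counted 1 of 16 risen and 0 fallen, TGF-beta/SMAD targets 1 of 10 risen and 0 fallen, and the 18 tested YAP/TEAD targets outside the members 0 in either direction.

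In NSC, 5 listed genes rose with both vectors against control and 9 against CEBPB of 56 tested, and 0 fell, beside 2.84% and 6.47% of all genes past the threshold in either direction. Among 16 YAP/TEAD targets outside the members, Nuak1, a kinase of the AMPK family, rose by 1.21 ± 0.17 (SE, adjusted p = 0.00154) and Crim1, a transmembrane protein that binds BMPs, by 0.96 ± 0.23 (adjusted p = 0.0376) against control. Against CEBPB they rose by 1.29 and 0.94, and Rbms3, an RNA-binding protein, by 0.81. The median of these 16 was -0.02 against control and 0.05 against CEBPB, near that of all genes.

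Of 18 upstream regulators, Wwc2, a WW-domain scaffold of the Kibra family, rose by 0.96 ± 0.14 (SE, adjusted p = 0.00157) and Frmd6, a FERM-domain protein that promotes Hippo signalling, by 0.91 ± 0.18 (adjusted p = 0.00981) against control. Both rose against CEBPB as well, by 0.65 and 0.94. Among 9 SRF/MRTF targets, genes of the actin cytoskeleton, Actn1 rose by 1.51 against control and 1.21 against CEBPB, and Acta2 and Tpm1 rose by 1.88 and 0.53 against CEBPB. All 9 had a positive difference from CEBPB, with a median of 0.39. Ccn4, the 1 other CCN family gene tested, rose by 0.76 ± 0.22 against CEBPB (adjusted p = 0.0464). The 3 TEAD factors and cofactors and the 9 TGF-beta/SMAD targets had 0 genes past the threshold in either comparison.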

How the data were processed

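Total RNA (200 ng per array) was hybridised to 34 mouse Illumina MouseWG-6 v2 bead arrays. Per the file headers, the deposited array files give a mean bead signal per probe, a linear intensity with some values below 0, a detection p-value, bead counts (used only for precision) and a bead spread (not used). A deposited value table from the authors, read as log2 although its transform is not stated, served as an alternative. The submitters' processing notes name BeadStudio and lumi, with no versions. Probes were named through the platform annotation and RefSeq (GRCm38.p6): 34885 probes had 1 symbol, 18 several and 10378 none. Within each cell type, intensities were normalised with neqc (limma 3.58.1, R 4.3.3, offset 16). Probes with a detection p below 0.05 on at least 4 arrays were kept, 1 per gene by highest mean. Genes tested numbered 9699 for C17.2 and 10858 for NSC. The two-sided limma tests (lmFit, eBayes) were adjusted by Benjamini-Hochberg over all genes and called at 0.05, with slide as a fixed term in NSC. A joint fit of all arrays compared the controls. Fold bounds use, for each array of the group without detection, the lowest signal of a detected probe. Identical values were found in 0 pairs of arrays. Members, gene lists and tests were chosen with earlier results of these data known. Named genes are all members, called list genes (at most 6 per list and comparison), the 5 most and 3 least correlated genes and 5 neighbours on each side. Alternatives covered the deposited values, an offset of 50, filters, probe averaging, slides, the chromosome 10 mean, the Y-chromosome arrays (left out, or as a split of slide 6) and each array left out.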

Additional observations from a re-analysis of the deposited data

Results flagged for a closer look

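An array counted as far from its group where its gap to the next array exceeded Dixon's 95% critical value for the group's range, which chance gives in about 1 in 20 groups. Of 68 groups of member values, 6 held such an array. In C17.2 they were Ankrd1 on CEBPB replicate 3 (8.07, below the other 3 at 10.57 to 10.67), Axl on STAT3C replicate 1 (12.88, above the others) and Tead1 on control replicate 1 (8.12, above the others). In NSC they were Ccn2 on STAT3C replicate 4 (6.32, below the others at 6.99 to 7.09), Arhgap29 on control replicate 5 (8.79, below the others) and Tead1 on control replicate 3 (9.19, above the others). The rule took no account of slide. STAT3C replicate 4 was the 1 STAT3C array on slide 6, where the control arrays of Ccn2 read 5.76 and 5.78, against 6.50 to 6.80 on slide 4. CEBPB replicate 3 of C17.2 also lay apart from its group on the first principal component, at -22.4 against 36.6 to 42.9. STAT3C replicate 1 was the lowest of its group there, at -37.5, but replicate 2 was also below 0, at -12.2.

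All CEBPB arrays moved one way from the control mean in C17.2 and the opposite way in NSC for a pair of members. The share of all genes that did so was not counted, so the number of members is not read as a result. For Ccn2, the C17.2 values also led to the choice of the set. The mean of the CEBPB arrays minus the control mean was 2.97 in C17.2 and -0.0789 in NSC for Ccn2, and 0.54 and -0.33 for Tead1, without a slide term. The NSC value of Ccn2 lay inside the control SD of 0.52, and within slide 6, which holds both groups, CEBPB minus control was 0.46 ± 0.60 (SE), so its direction in NSC is not settled. For Tead1 in NSC, CEBPB minus control was -0.12 ± 0.28 (SE) within slide 6. With slide as a term it was -0.34 and did not pass (adjusted p = 0.703, limma), so that direction is not settled either. The difference between cell types was not tested.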

How the results depend on the processing

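No paired analysis was possible because the labels give no replicate numbers that tie arrays across groups. Counts are of members called. Calls over all genes are given only for the split of slide 6. A change in a count is therefore not read as a result about the members. In C17.2, CEBPB against control (2 members) gave 1 with the deposited values, with averaged probes and with no detection filter, and 0 with the chromosome 10 covariate. Both vectors against STAT3C (1) gave 0 with no filter and 0 with slide as a fixed block, and both against control (1) gave 3 with slide as a random block. In NSC, both vectors against CEBPB (1) gave 2 with the deposited values, averaged probes or a random slide block, 3 with an offset of 50, 5 within slide 5, 0 within slide 6 and 5 without the Y-chromosome arrays. Both against STAT3C (0) gave 1 with averaged probes and 1 with a random block. Both against control (1) gave 0 with the deposited values, within slide 6 and without the Y-chromosome arrays, and non-additivity (0) gave 2 without those arrays. With 1 array left out the counts ran from 0 to 3 for C17.2 CEBPB against control, 0 to 1 for STAT3C against control, CEBPB against STAT3C and both against STAT3C, 1 to 3 for both against control, and in NSC from 1 to 5 for both against CEBPB, 0 to 1 for both against STAT3C and 0 to 1 for non-additivity. Splitting slide 6 by Y-chromosome signal, added after the data were seen, gave 1 for CEBPB against control (0 before), 3 for both against CEBPB, 1 for both against STAT3C, 2 for non-additivity and 1 for both against control, where calls over all genes went from 308 to 899. Over all genes it moved calls from 3 to 41, 702 to 1472, 37 to 225 and 4 to 189 in the first 4 of these. Within NSC slide 6, signs turned for 17 of 56 member differences, among them Ccn1, both against CEBPB (-0.23), and Ccn2, CEBPB against control (0.46). The cause of these changes was not tested. The within-slide fits of C17.2 were also added after the data were seen. Values near background limit Ccn1, Amotl2 and Ankrd1 in NSC, and few arrays limit all comparisons.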
